A study of Mus musculus with 12 samples.

Results

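The DNA replication genes examined here are a list of 43 mouse genes whose products license replication origins, unwind and copy the DNA, supply deoxynucleotides and restore chromatin behind the fork, together with the transcription factors E2f1 and E2f2. Their mRNA was measured on 12 single-colour Illumina bead arrays in RAW264.7, a macrophage-like mouse cell line that divides in culture. A member counted as measured where a probe carrying its symbol was detected (p under 0.05) on 3 or more arrays, and the brightest such probe stood for the gene. Of the 43 genes, 40 had a probe and 38 passed, among 8101 genes measured in all. Orc1 and Pola1 each had a probe that was detected on 0 arrays, and Gins1, Gins2 and Rfc3 had no probe under their symbol and were not analysed here. Of the 38 measured members, 37 were detected on all 12 arrays, and Gmnn, the inhibitor of the loading factor Cdt1, was detected on 9.

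The arrays form 4 groups of 3. Untreated cells received neither agent, the gefitinib group received gefitinib at 10 µM, the CpG group received CpG at 10 µg/ml for 6 h, and the combined group received gefitinib for 1 h before CpG at those doses. All groups were grown in DMEM with serum. CpG DNA is a synthetic ligand that mimics bacterial DNA and is sensed by Toll-like receptor 9 in endosomes, and gefitinib is a kinase inhibitor made against the epidermal growth factor receptor. The labels call the arrays biological triplicates of the cell line. They do not say how long cells without CpG were kept, or whether untreated cells received a vehicle.

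Replication starts when the origin recognition complex, Cdc6 and Cdt1 load the Mcm2 to Mcm7 ring onto DNA in G1, and the ring becomes an active helicase when Cdc45 and the GINS complex join it in S phase. Polymerase alpha with primase starts each strand, polymerases delta and epsilon extend it on the sliding clamp Pcna, and replication protein A coats the unwound template. Many of these genes are transcribed in late G1 and S phase under E2F factors, so their mRNA is high in cycling cells and low in arrested ones. In bulk RNA of this kind, fewer cells in S phase and less RNA of these genes per cell cannot be told apart.

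Each array detected 10705 to 11181 of its 25697 probes, and no 2 arrays held the same values. Levels below are log2 of the background-corrected, quantile-normalized signal, and a gene was called where limma gave an adjusted p under 0.05 over all 8101 genes. Of 11 macrophage markers, 8 had a probe and 7 of those were detected on all 12 arrays. No fibroblast or lymphocyte marker with a probe was detected on any array. Of the 4 epithelial markers with a probe, Cdh1 was detected on 11 arrays and the other 3 on 0. Of the 4 granulocyte markers with a probe, Mpo and S100a9 were detected on 0 arrays, Elane on 2 and S100a8 on all 12. The log2 of the summed level of these 4 was 10.29 to 10.93 in the CpG arrays. It was 7.90 to 8.26 in untreated, 7.42 to 7.74 in gefitinib and 7.56 to 7.73 in combined arrays. S100a8 changed by 2.89 on the log2 scale with CpG (limma adjusted p = 6.65e-08). Mpo, Elane and S100a9 lay between 4.25 and 5.06 on all 12 arrays. The part of this rise of S100a8 in the results below was not tested.

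**Figure D1:**
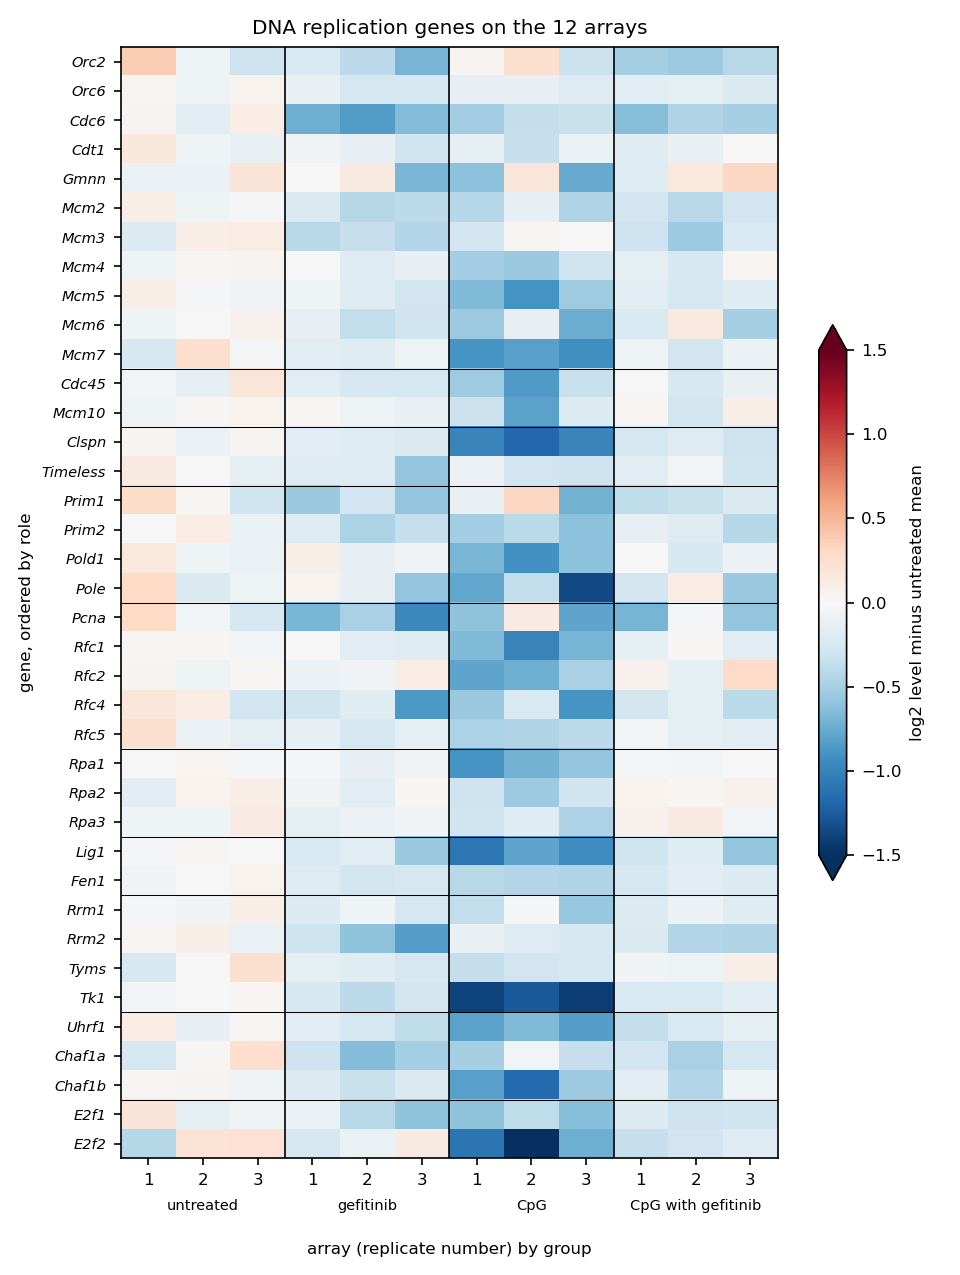
Level of each of the 38 measured replication genes (rows, grouped by role) on each of the 12 arrays (columns, by group), as the log2 difference from the mean of the 3 untreated arrays. The 3 CpG columns hold most of the low values, and the 3 combined columns lie close to the gefitinib columns.

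CpG alone was set against untreated cells to ask how the ligand moves the replication genes. Of the 38 measured members 24 (63.2%) fell and 0 rose, where 15.3% of all genes tested fell and 10% rose. The median change of the members was -0.45 on the log2 scale, with a range of -1.35 to -0.01, and the median of all genes was -0.06. All 38 members had a change below 0. For 28 members every CpG array lay below every untreated array, which held for 22.6% of all genes. The median of the members, taken array by array against the untreated mean, was -0.53, -0.39 and -0.54 in the 3 CpG arrays.

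The member with the largest change was Tk1, the cytosolic thymidine kinase that salvages thymidine for DNA synthesis. Its level was 10.63, 10.67 and 10.70 in untreated cells and 9.28, 9.41 and 9.26 in CpG cells. The groups lay far apart, and the change was -1.35 ± 0.09 (SE, n = 3 arrays per group; limma adjusted p = 1.53e-07), a 2.56-fold lower level. The other 3 deoxynucleotide synthesis genes were not called: Rrm1 and Rrm2, the subunits of ribonucleotide reductase, had changes of -0.32 and -0.18, and Tyms, thymidylate synthase, had -0.30.

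Both E2F genes on the list, E2f1 and E2f2, fell. E2f3, which is outside the list, went the other way and is described with the other pathway genes below. E2f2 was at 8.34, 8.97 and 8.98 in untreated cells and at 7.67, 6.71 and 8.03 in CpG cells, a change of -1.29 ± 0.27 (adjusted p = 0.00325). The third CpG array lay 1.32 above the second, so this large change had the widest within-group spread of all members. E2f1 was at 9.36, 9.02 and 9.12 against 8.56, 8.79 and 8.53, a change of -0.54 ± 0.14 (adjusted p = 0.0114). The 3 CpG arrays lay below all untreated arrays for both genes, although the E2f1 call was lost without untreated replicate 1 (adjusted p = 0.0517).

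Among the 11 measured origin licensing genes, 5 fell, and these were Cdc6, Mcm2, Mcm4, Mcm5 and Mcm7. Mcm7 was at 8.42, 8.92 and 8.62 in untreated cells and at 7.76, 7.84 and 7.73 in CpG cells, a change of -0.87 ± 0.12 (adjusted p = 0.000172). Mcm5 was at 11.71, 11.60 and 11.58 against 10.96, 10.73 and 11.10, which gave -0.70 ± 0.11 (adjusted p = 0.000436). Mcm4 was at 11.64, 11.75 and 11.76 against 11.20, 11.16 and 11.41, which gave -0.46 ± 0.11 (adjusted p = 0.00817). In these 3 subunits of the helicase ring no CpG array reached an untreated one.

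Of the other 3 subunits of the ring 1 was called. Mcm2 was at 9.40, 9.25 and 9.30 in untreated cells and at 8.90, 9.20 and 8.86 in CpG cells, and its change of -0.33 ± 0.11 passed the threshold narrowly (adjusted p = 0.0463). Mcm6 was at 11.20, 11.26 and 11.32 against 10.71, 11.14 and 10.51, with a change of -0.47 ± 0.17 that was not called (adjusted p = 0.0633). Mcm3 was at 9.05, 9.35 and 9.36 against 8.97, 9.27 and 9.25, and its difference of -0.09 ± 0.13 was smaller than its spread (adjusted p = 0.67). The second CpG array was the highest of its group in all 3 genes. Cdc6, which brings the ring to the origin, fell by 0.41 on the log2 scale (SE 0.11, adjusted p = 0.0143). The remaining licensing genes were not called, with changes of -0.01 for Orc2, -0.15 for Orc6, -0.20 for Cdt1 and -0.39 for Gmnn. Gmnn was above background on 1 of the 3 CpG arrays, so its change there is uncertain.

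At the fork, Clspn fell from 9.73, 9.60 and 9.73 in untreated cells to 8.70, 8.51 and 8.70 in CpG cells. Claspin, its product, travels with the fork and passes stalled-fork signals from Atr to Chek1. The change was -1.05 ± 0.10 (adjusted p = 2.74e-06), a 2.07-fold lower level with no overlap. Its partner Timeless had a change of -0.23 and was not called. Both measured helicase activation genes, Cdc45 (-0.57 ± 0.13, adjusted p = 0.00677) and Mcm10 (-0.44 ± 0.15, adjusted p = 0.0432), fell. Cdc45 was at 8.64, 8.54 and 8.86 against 8.15, 7.83 and 8.34.

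Of the 4 measured polymerase and primase genes 3 fell. Pold1, the catalytic subunit of polymerase delta, was at 10.31, 10.10 and 10.06 in untreated cells and at 9.47, 9.25 and 9.54 in CpG cells, a change of -0.74 ± 0.12 (adjusted p = 0.000423). Pole, the catalytic subunit of polymerase epsilon, was at 7.63, 7.11 and 7.26 against 6.55, 6.96 and 5.98, a change of -0.84 ± 0.25 (adjusted p = 0.0246). The CpG arrays of Pole were spread over nearly a whole log2 unit, whereas those of Pold1 lay close together. The Pole call was lost without untreated replicate 1 and without CpG replicate 1 or 3 (adjusted p up to 0.0993). Prim2, the large primase subunit, fell by 0.52 on the log2 scale, and Prim1, the catalytic subunit, had a change of -0.17 and was not called.

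The 5 measured clamp and clamp loader genes had changes of -0.79 to -0.43, and 3 of them were called lower. Pcna was at 8.39, 8.06 and 7.84 in untreated cells and at 7.49, 8.22 and 7.30 in CpG cells. The second CpG array lay within the untreated range, and the change of -0.43 ± 0.24 was not called (adjusted p = 0.233). Rfc1, the large subunit of the clamp loader, was at 9.29, 9.29 and 9.23 against 8.61, 8.27 and 8.57, a change of -0.79 ± 0.11 (adjusted p = 0.000173). Rfc2 (-0.67 ± 0.13, adjusted p = 0.00163) and Rfc5 (-0.44 ± 0.11, adjusted p = 0.011) also fell, and Rfc4 (-0.55 ± 0.20, adjusted p = 0.0576) was not called.

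All 3 subunits of replication protein A and both Okazaki fragment genes fell. Rpa1, the large DNA-binding subunit, was at 11.97, 11.99 and 11.93 in untreated cells and at 11.08, 11.26 and 11.38 in CpG cells, a change of -0.72 ± 0.10 (adjusted p = 0.000107). Rpa2 and Rpa3 fell by 0.39 and 0.32 on the log2 scale. The calls of Rpa3, Mcm2 and Mcm10 were the least firm, lost under 14, 14 and 15 of 23 alternative settings. Lig1, the ligase that seals Okazaki fragments, was at 9.69, 9.72 and 9.69 against 8.61, 8.91 and 8.77, a change of -0.94 ± 0.14 (adjusted p = 0.000188). Fen1, the nuclease that trims their flaps, fell by 0.44 on the log2 scale (adjusted p = 0.00243), from 11.31, 11.37 and 11.43 to 10.96, 10.93 and 10.92. Rpa1 and Lig1 were well separated between the groups, and Fen1 had the smallest within-group SD of these genes, at 0.0455.

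Of the 3 chromatin genes 2 fell. Uhrf1, which brings the maintenance methyltransferase Dnmt1 to newly copied DNA, was at 11.48, 11.25 and 11.39 in untreated cells and at 10.57, 10.70 and 10.54 in CpG cells, a change of -0.76 ± 0.11 (adjusted p = 0.000149). Chaf1b, a subunit of the histone chaperone CAF-1, was at 9.70, 9.71 and 9.62 against 8.86, 8.51 and 9.13, a change of -0.84 ± 0.15 (adjusted p = 0.000836). Neither gene had overlapping groups. Chaf1a, the large CAF-1 subunit, had a change of -0.29 and was not called.

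**Figure D2:**
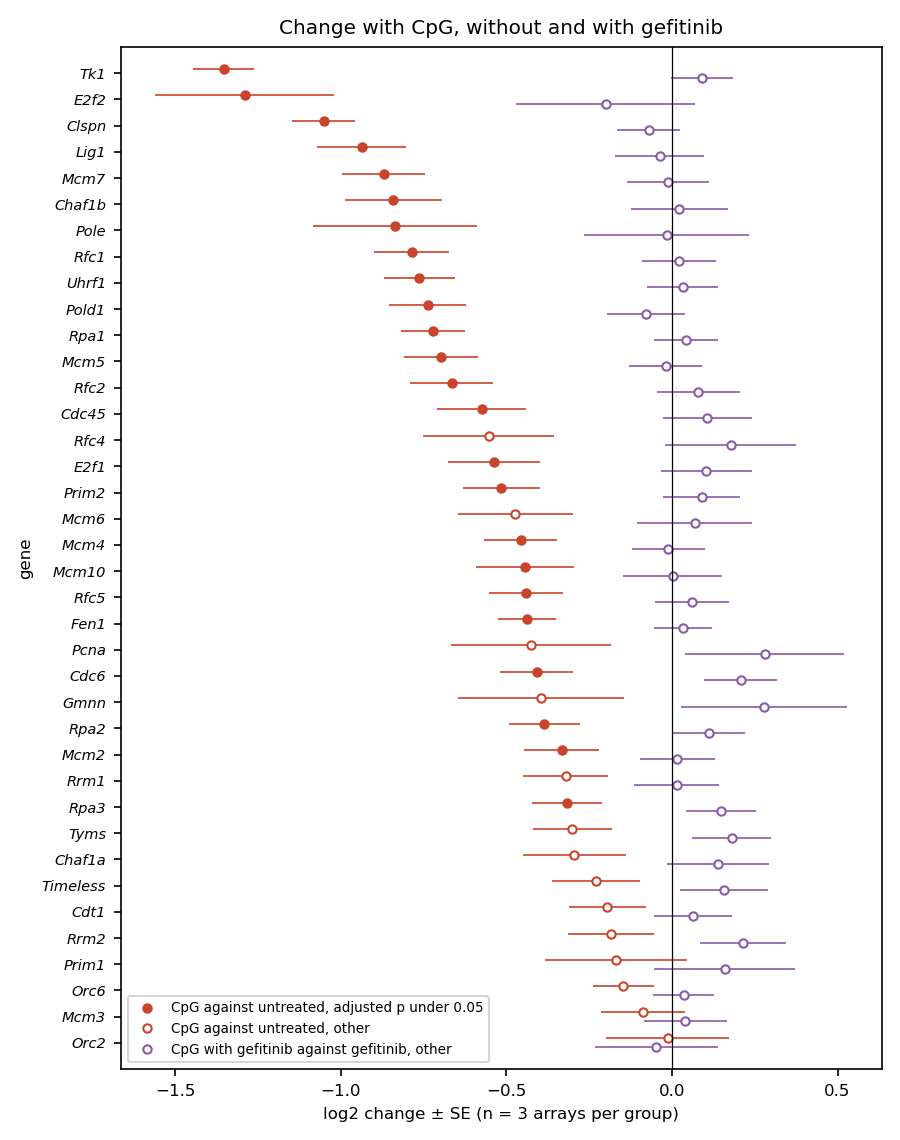
Log2 change of each measured replication gene with CpG, without gefitinib (red, CpG against untreated) and with it (purple, combined against gefitinib), with bars of 1 SE from 3 arrays per group. Filled points passed the adjusted threshold; the red points lie below 0 for all 38 genes and reach -1.35 for Tk1, and the purple points lie around 0 with none filled.

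The promoters of the members were searched because many of these genes are known E2F targets. RefSeq windows of the 250 bases before each start (assembly GRCm38.p6) were available for 36 of the 43 members. The E2F words TTTCCCGC, TTTGGCGC, TTTCGCGC and TTTGCCGC and the word CCAAT were looked for on both strands. An E2F word was found in 8 of the 36 genes (22.2%), against 2.16% of the 27025 genes in the table, and CCAAT in 24 (66.7%), against 37.5%. Among members with a window, an E2F word stood in 4 of the 20 that fell with CpG (20.0%) and in 1 of the 13 measured members not called (7.69%), and CCAAT in 12 (60.0%) and 9 (69.2%). A match is a description of letters and no shown binding site. Shown are the 4 members that fell with CpG and hold an E2F word, then Tk1 and Clspn, the members with the smallest adjusted p. Mcm7 and Uhrf1 each have a further window, not shown, that holds no E2F word. Capitals mark E2F words and CCAAT, or their reverse complements, and in Mcm5 an E2F word on each strand overlap. They lie at chr11:98907901-98908150 (plus strand) for Cdc6, chr8:75109259-75109508 (plus) for Mcm5, chr5:138171884-138172133 (minus) for Mcm7, chr17:56304063-56304312 (plus) for Uhrf1, chr11:117826015-117826264 (minus) for Tk1 and chr4:126556730-126556979 (plus) for Clspn. Cdc6 holds an E2F word and no CCAAT, and the Tk1 window, of the member with the largest CpG change, holds neither word.
Cdc6: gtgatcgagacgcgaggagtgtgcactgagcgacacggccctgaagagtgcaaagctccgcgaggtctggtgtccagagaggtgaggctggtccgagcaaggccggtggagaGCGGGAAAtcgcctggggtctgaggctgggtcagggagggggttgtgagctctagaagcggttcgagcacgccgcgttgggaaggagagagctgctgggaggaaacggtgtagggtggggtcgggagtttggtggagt
Mcm5: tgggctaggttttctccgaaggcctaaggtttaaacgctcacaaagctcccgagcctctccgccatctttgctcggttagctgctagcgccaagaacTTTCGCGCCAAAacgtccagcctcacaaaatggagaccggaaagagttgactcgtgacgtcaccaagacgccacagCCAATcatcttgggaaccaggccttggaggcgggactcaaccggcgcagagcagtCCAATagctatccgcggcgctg
Mcm7: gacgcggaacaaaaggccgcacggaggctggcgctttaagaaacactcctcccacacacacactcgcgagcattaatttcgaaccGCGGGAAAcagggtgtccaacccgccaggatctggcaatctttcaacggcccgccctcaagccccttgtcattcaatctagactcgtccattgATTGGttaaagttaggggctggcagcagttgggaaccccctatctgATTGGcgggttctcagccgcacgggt
Uhrf1: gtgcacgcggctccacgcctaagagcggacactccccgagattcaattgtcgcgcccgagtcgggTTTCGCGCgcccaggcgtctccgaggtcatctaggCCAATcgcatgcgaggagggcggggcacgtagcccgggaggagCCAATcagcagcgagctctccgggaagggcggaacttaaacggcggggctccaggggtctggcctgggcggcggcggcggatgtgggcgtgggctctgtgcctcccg
Tk1: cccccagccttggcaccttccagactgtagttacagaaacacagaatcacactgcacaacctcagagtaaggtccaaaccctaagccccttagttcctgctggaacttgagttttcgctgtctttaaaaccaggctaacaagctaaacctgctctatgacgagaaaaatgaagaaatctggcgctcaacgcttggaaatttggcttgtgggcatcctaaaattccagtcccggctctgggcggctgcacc
Clspn: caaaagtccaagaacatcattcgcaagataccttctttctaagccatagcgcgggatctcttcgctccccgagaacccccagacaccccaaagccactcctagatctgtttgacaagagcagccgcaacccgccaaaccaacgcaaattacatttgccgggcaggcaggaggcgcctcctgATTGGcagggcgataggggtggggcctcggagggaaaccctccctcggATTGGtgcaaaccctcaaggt

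The comparison of the combined group with CpG is the one the series names, and it asks how gefitinib given first alters gene expression under CpG. In it 17 of the 38 members (44.7%) were higher and 0 lower, where 22% of all genes were higher and 15.2% lower. The median difference was 0.33 on the log2 scale, against 0.06 over all genes. For 20 members every combined array lay above every CpG array, which held for 27.2% of all genes. All 17 were among the 24 that fell with CpG, but both comparisons use the same 3 CpG arrays.

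Tk1 again had the largest difference, at 10.44, 10.44 and 10.50 in the combined arrays, which was 1.14 ± 0.09 above CpG (adjusted p = 6.78e-07) and 2.21-fold higher. E2f2 was at 8.42, 8.48 and 8.57, a difference of 1.02 ± 0.27 (adjusted p = 0.00975). Clspn was at 9.42, 9.49 and 9.38, a difference of 0.80 ± 0.10 (adjusted p = 2.68e-05). In all 3 genes the combined arrays lay above every CpG array, and for Tk1 and Clspn they stayed below every untreated array.

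Rfc2 was at 9.66, 9.71 and 9.96 in CpG cells and at 10.51, 10.30 and 10.73 in the combined group, a difference of 0.74 ± 0.13 (adjusted p = 0.000502). Mcm7 was at 8.57, 8.36 and 8.56, a difference of 0.72 ± 0.12 (adjusted p = 0.000534). Rpa1 was at 11.94, 11.92 and 11.96, a difference of 0.70 ± 0.10 (adjusted p = 9.33e-05). For these 3 genes the range of the combined arrays overlapped that of the untreated arrays.

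Rfc1 stood at 9.13, 9.29 and 9.10 in the combined arrays, which was 0.69 ± 0.11 above CpG (adjusted p = 0.000325). Pold1 stood at 10.16, 9.92 and 10.07 and was 0.63 ± 0.12 higher (adjusted p = 0.000898). Chaf1b, at 9.50, 9.24 and 9.61, was 0.62 ± 0.15 higher (adjusted p = 0.0048). Lig1, at 9.40, 9.52 and 9.11, was 0.58 ± 0.14 higher (adjusted p = 0.00414) while every combined array stayed below the untreated ones.

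The other 7 members that were higher were Uhrf1 (0.53), Mcm5 (0.50), Cdc45 (0.46), Rpa2 (0.44), Rpa3 (0.37), Mcm4 (0.34) and Rfc5 (0.33), in log2 differences. By role, 3 of 11 licensing genes (27.3%) were higher, close to the 22% of all genes. So were 3 of 5 clamp and loader genes (60%) and all 3 replication protein A genes. Of the ring, Mcm5 at 11.47, 11.38 and 11.45 and Mcm4 at 11.58, 11.48 and 11.75 were higher than with CpG. Mcm6, at 11.03, 11.41 and 10.76, differed by 0.28 ± 0.17 (adjusted p = 0.237). Mcm2, at 9.03, 8.91 and 9.03, differed by 0.01 (adjusted p = 0.979), and Mcm3, at 8.94, 8.71 and 9.02, by -0.27 ± 0.13 (adjusted p = 0.112). The calls thus differed among the 6 subunits of the ring, although the differences of Mcm4 (0.34) and Mcm6 (0.28) were similar in size. Whether the subunits differed from one another was not tested.

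E2f1, at 8.95, 8.86 and 8.87, differed from CpG by 0.27 ± 0.14 and was not called (adjusted p = 0.152). Pcna, at 7.40, 8.08 and 7.51, differed by -0.01 (adjusted p = 0.99). The same-numbered arrays of these groups deviated together, and with the replicate number as a block Fen1 (adjusted p = 0.048), Mcm10 (0.0323) and Pole (0.027) were also called higher. Orc2, a subunit of the origin recognition complex, was called lower in that fit (log2 difference -0.47, adjusted p = 0.0292) and not without the block (0.06).

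**Figure D3:**
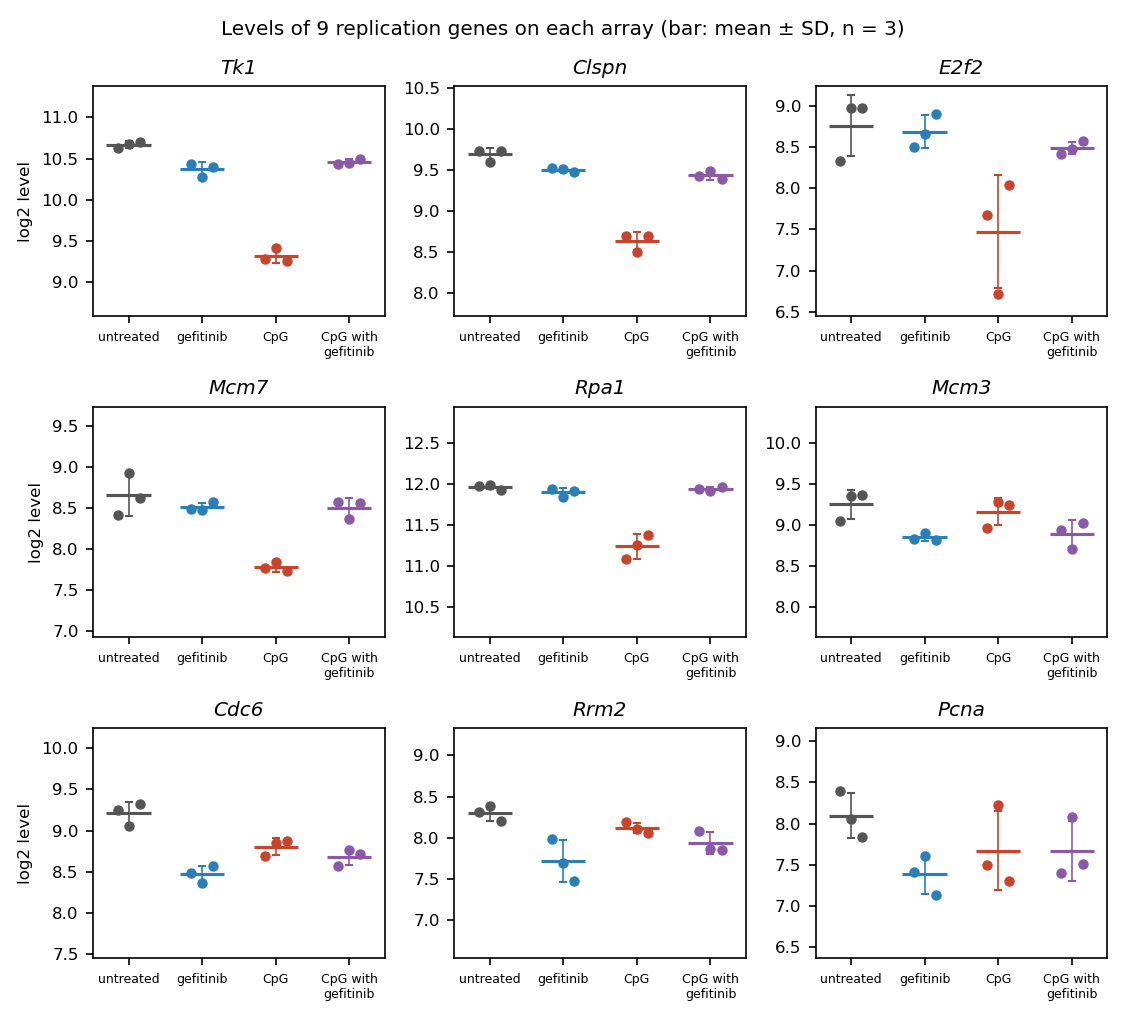
Level on each array (points, log2 signal) of 9 replication genes in the 4 groups, with the mean of 3 arrays as a line and bars of 1 SD. Tk1 (9.26 to 9.41 with CpG), Clspn, Mcm7 and Rpa1 are lowest in the CpG arrays, whereas Cdc6 and Rrm2 have their lowest mean in the gefitinib arrays.

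With gefitinib present, CpG moved no replication gene past the threshold. In the combined group against gefitinib, limma called 0 of 38 members and 0% of all genes, and 0 members had an unadjusted p under 0.05. The median difference was 0.05 on the log2 scale, with a range of -0.20 to 0.28. For 5 members every combined array lay above every gefitinib array, and for 0 below, against 4.3% and 5.65% of all genes. Tk1 was at 10.43, 10.28 and 10.40 with gefitinib and at 10.44, 10.44 and 10.50 with both. Rpa1 was at 11.94, 11.84 and 11.91 against 11.94, 11.92 and 11.96. For both genes the distance between these groups was small beside the fall with CpG alone.

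The difference between the 2 CpG effects was tested directly as an interaction. It was positive and called for 17 of the 38 members and negative for 0, where 6.34% of all genes were positive and 6% negative. The median was 0.61 on the log2 scale, against 0.07 over all genes. Tk1 (1.44 ± 0.13, adjusted p = 5.77e-06), Clspn (0.98 ± 0.14, adjusted p = 0.000257), Lig1 (0.90 ± 0.19, adjusted p = 0.00711), Chaf1b (0.86 ± 0.21, adjusted p = 0.0147) and Mcm7 (0.86 ± 0.18, adjusted p = 0.00548) had the largest called values. Next came Rfc1 (0.81 ± 0.16), Uhrf1 (0.80 ± 0.15), Rpa1 (0.77 ± 0.14), Rfc2 (0.75 ± 0.18) and Mcm5 (0.68 ± 0.16). The interaction of E2f2, 1.09 ± 0.38, was large but not called (adjusted p = 0.0863). Without gefitinib replicate 2 the count of called members was 10.

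Across the 38 members the CpG change without gefitinib and the change with it, which use different arrays, had a Pearson r of 0.476 and a Spearman rho of 0.46. This is a description across genes of the same 12 arrays, and genes are not independent replicates.

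**Figure D4:**
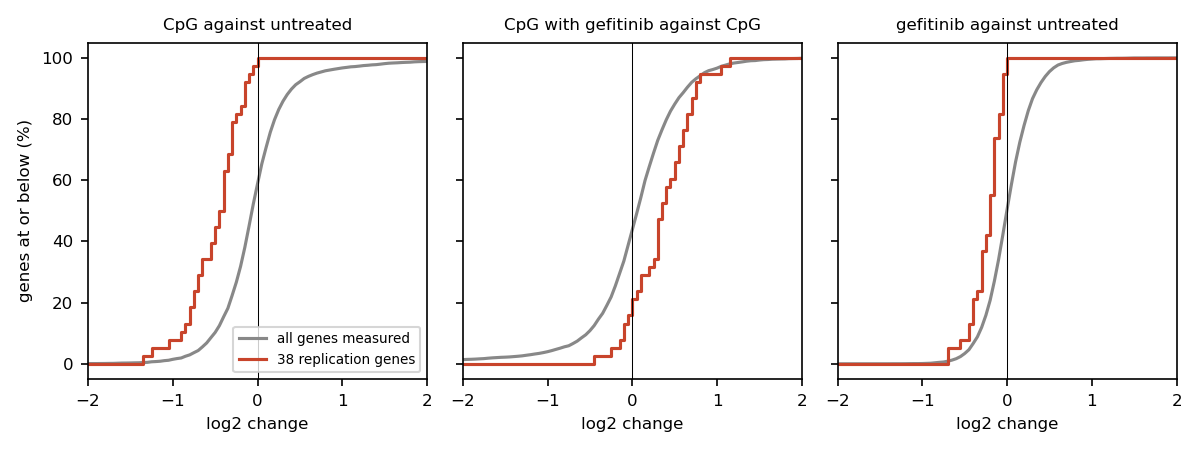
Cumulative share (percent) of the 38 measured replication genes and of all 8101 genes at or below each log2 change, in 3 comparisons. The replication curve lies to the left of the curve of all genes for CpG against untreated (medians -0.45 and -0.06) to its right for the combined group against CpG (0.33 and 0.06), and to the left for gefitinib against untreated (-0.22 and -0.0019).

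Gefitinib alone was set against untreated cells to ask how the inhibitor moves the replication genes without CpG. In this comparison 2 of the 38 members fell, Cdc6 and Rrm2, and 0 rose, where 2.84% of all genes fell and 4.96% rose. These shares stand for 230 and 402 genes, which were 50 and 87 after median scaling and 62 and 144 without gefitinib replicate 3. The median change of the members was -0.22 on the log2 scale, against -0.0019 over all genes, and after median scaling it was -0.41, against -0.077. All 38 members had a change below 0, as had 4086 of the 8101 genes. The comparison of CpG with untreated cells uses the same 3 untreated arrays, so the 2 patterns are not independent. For 19 members every gefitinib array lay below every untreated array, which held for 14.4% of all genes. The median of the members against the untreated mean was -0.16, -0.19 and -0.28 in the 3 gefitinib arrays.

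Cdc6 was at 9.25, 9.06 and 9.33 in untreated cells and at 8.48, 8.37 and 8.57 in gefitinib cells. The change was -0.74 ± 0.11 (adjusted p = 0.00271), a 1.67-fold lower level, beside -0.41 with CpG, where the arrays stood at 8.68, 8.85 and 8.87. In the combined group Cdc6 was at 8.57, 8.76 and 8.71. All 9 treated arrays thus lay below the 3 untreated ones. The difference between the gefitinib and CpG groups was not tested.

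Rrm2, the regulated subunit of ribonucleotide reductase, was at 8.31, 8.39 and 8.20 in untreated cells and at 7.99, 7.69 and 7.48 in gefitinib cells. The change was -0.58 ± 0.13 (adjusted p = 0.0177), and a further Rrm2 probe gave -0.77 (adjusted p = 0.0145 over the 11977 probes kept). With CpG alone Rrm2 stood at 8.19, 8.11 and 8.06, each a little below every untreated array, and was not called. Tk1 and Rrm2, which both feed deoxynucleotide synthesis, therefore had their lowest mean in different groups. The gefitinib arrays of Rrm2 overlapped its combined arrays (7.85 to 8.09). The Rrm2 call was lost without untreated replicate 1 or 2 or gefitinib replicate 2 or 3 (adjusted p up to 0.0796). It was also lost with median scaling (limma adjusted p = 0.119).

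Pcna was at 7.41, 7.61 and 7.13 with gefitinib, below all 3 untreated arrays. The change of -0.71 ± 0.24 was the second largest in this comparison and was not called (adjusted p = 0.0899). Mcm3 (-0.40 ± 0.13, adjusted p = 0.0711) and Mcm2 (-0.34 ± 0.11, adjusted p = 0.0828) had non-overlapping groups and were not called. Mcm4, Mcm5, Mcm6 and Mcm7 had changes of -0.10, -0.18, -0.26 and -0.14, and E2f1 and E2f2 of -0.37 and -0.07, none of them called. Without CpG replicate 2, an array in neither group that adds to the shared estimate of spread, 6 members were called lower, and without untreated replicate 2 or gefitinib replicate 2 or 3 the count was 1.

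**Figure D5:**
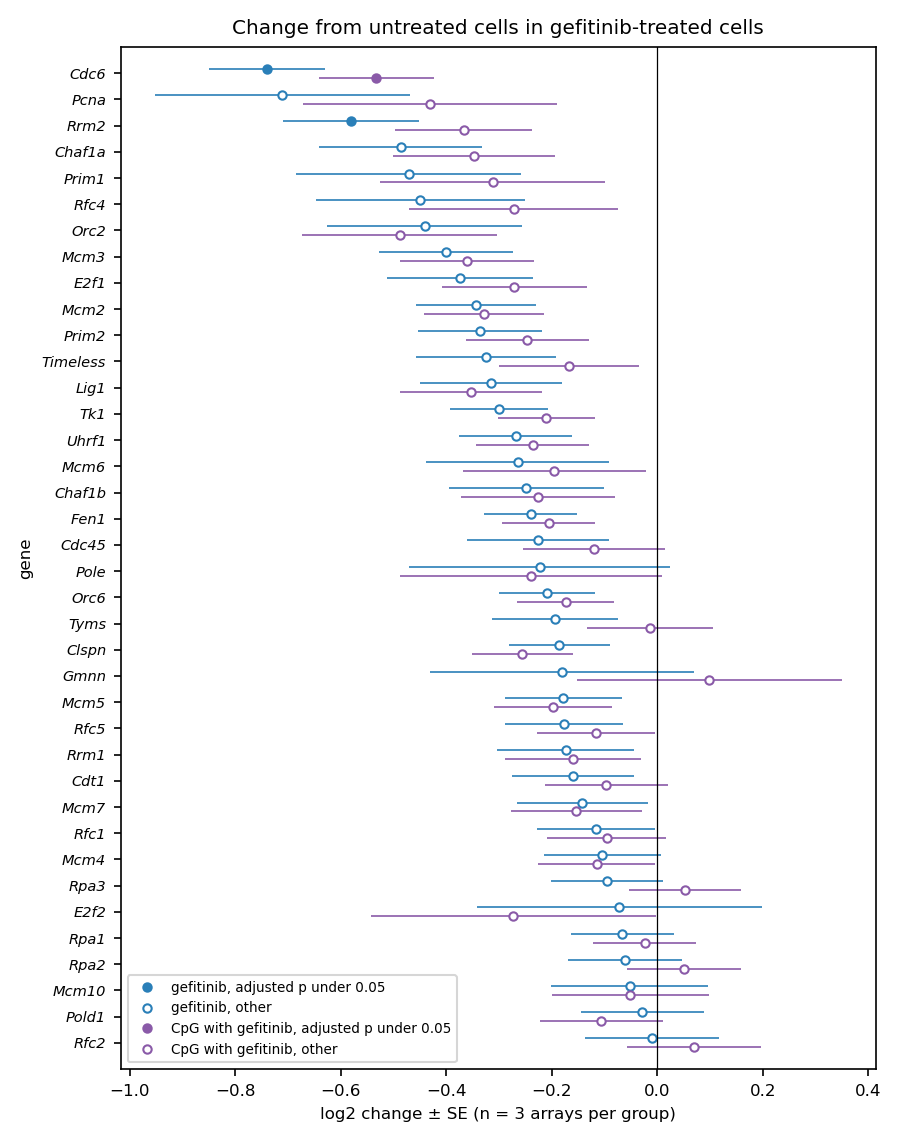
Log2 change of each measured replication gene against untreated cells with gefitinib alone and with gefitinib before CpG, with bars of 1 SE from 3 arrays per group. Filled points passed the adjusted threshold; they are Cdc6 in both comparisons and Rrm2 with gefitinib alone.

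In the combined group against untreated cells Cdc6 was the 1 member called, at -0.53 on the log2 scale (adjusted p = 0.0185), where 1.33% of all genes were lower and 2.54% higher. The median of the members was -0.20 and 34 of the 38 were below 0, against the same 3 untreated arrays as in the other comparisons. For 16 members every combined array lay below every untreated one, against 12.2% of all genes. The member median per array was -0.19 in each of the 3 combined arrays, close to the gefitinib arrays. The call of Cdc6 was lost without untreated replicate 1 or 3 or combined replicate 1 or 3. Over all genes 206 were higher and 108 lower, and after median scaling 56 and 16.

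Replicates were tight for most members and wide for a few. The within-group SD was 0.0455 for Fen1 and 0.0637 for Tk1, and it was over 0.28 for E2f2 (0.403), Gmnn (0.37), Pole (0.366), Pcna (0.355), Prim1 (0.308) and Rfc4 (0.283). In the CpG group replicate 2 lay above replicate 3 by 1.02 for Prim1, 0.99 for Pole, 0.95 for Gmnn, 0.92 for Pcna and 0.66 for Rfc4, and below it by 1.32 for E2f2. Without CpG replicate 2 the median CpG change of the members was -0.52, and 27 were called lower.

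Several probes passed for 14 members. With CpG 9 of these were called by the brightest probe, no further probe was called in the opposite direction, and 6 had a further probe that was not called. In the combined group against CpG 7 were called, and 6 of them had a further probe that was not called. For the interaction all 5 that were called had such a probe. In neither was a further probe called in the opposite direction. With CpG, Clspn had 4 probes with changes of -1.05, -1.39, -0.98 and -0.68, all called lower. Tk1 had 3, with -1.35, -1.18 and -0.48, and the last was not called. Mcm6, not called by its brightest probe, had 2 of 4 probes called lower with CpG (-0.72 and -0.50). A dimmer Tyms probe was called lower with CpG (-0.52) and with gefitinib (-0.53), unlike the brightest.

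Of 97 genes of the same pathways outside the list 73 were measured. With CpG 31 (42.5%) fell and 2 (2.74%) rose, where 15.3% of all genes fell and 10% rose. In the combined group against CpG 27 (37%) were higher and 7 (9.59%) lower, where 22% of all genes were higher and 15.2% lower. Of 26 measured replisome and licensing genes 12 (46.2%) fell with CpG and 0 rose. Gins3, a subunit of the GINS complex, changed by -1.30 ± 0.12 with CpG (adjusted p = 4.08e-06) and stood 1.32 ± 0.12 higher in the combined group (adjusted p = 2.67e-06). Gins4, of the same complex, changed by -0.59 and 0.88. These were the nearest measured relatives of Gins1 and Gins2, which were not analysed here.

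Of 14 nucleotide synthesis genes 2 (14.3%) fell with CpG, close to the 15.3% of all genes. They were Dut (-0.88), the dUTPase, and Dtymk (-0.34), thymidylate kinase. Samhd1, which degrades deoxynucleotides, rose by 0.98 with CpG (adjusted p = 7.49e-06), and the combined group differed from CpG by -1.06 on the log2 scale (adjusted p = 2.61e-06). It thus moved opposite to Tk1. Of 7 chromatin maintenance genes 4 (57.1%) fell with CpG, among them Dnmt1 (-0.70) and the histone chaperone gene Asf1b (-0.62), and 5 (71.4%) were higher in the combined group than with CpG.

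Of 14 cyclin, kinase and E2F/RB genes 6 (42.9%) fell and 1 (7.14%) rose with CpG. Tfdp2, a dimer partner of E2F factors, changed by -1.17 with CpG and 1.36 in the combined group against CpG. The pocket protein gene Rb1 changed by -0.57 and 1.04, and its product restrains E2F factors. E2f3 went the other way, at 0.53 with CpG (adjusted p = 0.0462) and -1.12 in the combined group against CpG. Ccne2, cyclin E2, fell by 0.75 on the log2 scale with CpG and by 0.60 with gefitinib. Rb1 rose with gefitinib alone (0.45, adjusted p = 0.0494). Of 12 checkpoint genes 7 (58.3%) fell with CpG, including the mismatch repair gene Msh6 (-0.81).

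Mitosis genes were used for comparison. Of 21 measured, 10 (47.6%) fell with CpG and 0 rose, with a median of -0.44, and 12 (57.1%) were higher in the combined group than with CpG. The kinesin gene Kif11 changed by -0.66 and the survivin gene Birc5 by -0.57 with CpG. With gefitinib alone 0 of the 21 were called and their median was -0.01, beside -0.22 for the replication genes. The difference between these 2 lists was not tested.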

How the data were processed

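RNA of RAW264.7 cells was measured on 12 bead arrays, in 4 groups of 3. The authors deposited a table of probe intensity with a detection p-value per array and a table of normalized values. The submitters' processing notes name GenomeStudio 2010.2. The deposited normalized table ranked probes as the intensities did (Spearman 1) and served as an alternative. The scale of the deposited normalized intensity, with array medians near 120.0, was not stated; it was read as quantile-normalized linear intensity. Array batches were not given in the sources used here. Probe sequence and build of the annotation were not used.

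Intensities were corrected and quantile-normalized with limma 3.58.1 (R 4.3.3; neqc, background from the detection p-values, offset 16) and kept at log2. Of 25697 probes 11977 were detected (p under 0.05) on at least 3 arrays, and 11283 of these had a symbol. Symbols came from the platform annotation, updated through gene identifiers for 23962 probes, and 1719 probes were unnamed here. A limma linear model over all 12 arrays (8 residual and 5.07 prior degrees of freedom) was tested with Benjamini-Hochberg adjustment over 8101 genes. The number of arrays limits the precision. P-values measure the spread between these cultures of 1 cell line.

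The members and gene lists were chosen with earlier results of these data known. Named with full statistics were up to 10 called members per comparison by size of change, and E2f1, E2f2, Pcna and Mcm2 to Mcm7. From each other list at most 4 called genes per comparison were named, here those detected on all arrays. In a paired check, deviations of same-numbered arrays correlated by 0.11 to 0.35 between the combined and CpG groups and by 0.237 to 0.277 between the combined and gefitinib groups, and by -0.153 to 0.129 between CpG and untreated, so the numbers pair the first 2 comparisons. The model was tested on simulated data. Alternatives were other scalings, the deposited table, filters, probe rules, variance settings, a replicate block and each array left out.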

Additional observations from a re-analysis of the deposited data

Results flagged for a closer look

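For 17 members the effect of CpG differed between cells without and with gefitinib, by limma's interaction term at an adjusted p under 0.05. The interaction on the log2 scale was 1.44 for Tk1 (CpG change -1.35 without and 0.09 with gefitinib), 0.98 for Clspn (-1.05 and -0.07), 0.90 for Lig1 (-0.94 and -0.04) and 0.86 for Mcm7 (-0.87 and -0.01). It was 0.86 for Chaf1b, 0.81 for Rfc1, 0.80 for Uhrf1, 0.77 for Rpa1, 0.75 for Rfc2, 0.68 for Mcm5, 0.68 for Cdc45 and 0.66 for Pold1. It was 0.64 for E2f1, 0.62 for Cdc6, 0.60 for Prim2, 0.50 for Rpa2 and 0.47 for Fen1. All 17 fell with CpG alone, but the interaction contains that same CpG change, so this overlap is not independent support. Cdc6 was the 1 of them that also fell with gefitinib alone (log2 -0.74) and that was lower in the combined group than in untreated cells (log2 -0.53). For Chaf1b, Clspn, Mcm7, Rfc1, Rfc2, Rpa1, Tk1 and Uhrf1 the interaction was called under every one of 21 alternatives. For the other 9 it was lost under at least 1, from 1 for Lig1 and Mcm5 to 12 for E2f1 and Rpa2. It was lost under 10 for Cdc45, 9 for Prim2 and 7 for Fen1.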

How the results depend on the processing

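Of 295 alternative values of the counts and medians, 255 stayed close to the reported value and 40 moved. A median was close where it shifted by under 0.0396 on the log2 scale, the SD of the members' median between replicates. A count of 0 that stayed 0 was also close. A change of direction was scored only for medians, in CpG against untreated, the combined group against CpG and the interaction. Among those medians 0 changed direction. Of 2300 alternative values for named members, 164 lost the call, 33 gained it and 0 reversed. For CpG against untreated the median change was -0.40 with cyclic loess, -0.53 with median scaling, -0.52 with array weights and -0.44 to -0.52 with 1 array left out, and the count of members called lower was 17 with median scaling, 18 with only the arrays compared, 16 with those arrays and the replicate block, and 19 to 27 with 1 array left out. With array weights the count was 30. Of the 24 calls in CpG against untreated, 14 held under every one of 23 alternatives. Without untreated replicate 3 or CpG replicate 1 the Cdc6 call was lost, and without untreated replicate 2 or 3 or CpG replicate 2 that of Rpa2. For the combined group against CpG the median was 0.27 with cyclic loess, with the deposited table and with the mean of probes, and 0.31 to 0.35 with 1 array left out. The count called higher was 10 with median scaling, 25 with array weights and 14 to 18 with 1 array left out. Of the 17 calls 10 held throughout. In several settings, among them cyclic loess and array weights, 1 member was also called lower. Mcm4, Rfc5, Rpa3 and Cdc45 were lost on leaving out single arrays of either group. With the mean of kept probes Mcm4 was lost both here and in CpG against untreated. For gefitinib against untreated the count called lower was 1 with median scaling, 8 with the deposited table, 7 with a trended robust prior, 6 with array weights and 1 to 6 with 1 array left out, and the median was -0.41 with median scaling, -0.18 with the deposited table and -0.19 to -0.27 with 1 array left out. For the combined group against gefitinib the median was 0.11 with median scaling and 0.02 to 0.09 with 1 array left out, and the count stayed 0. For the combined group against untreated the count was 0 with median scaling, 2 with the deposited table, 2 with the mean of probes and 0 to 1 with 1 array left out, and the median was -0.32 with median scaling and -0.18 to -0.22 with 1 array left out. For the interaction the count was 10 with median scaling and 10 to 17 with 1 array left out. It was 22 with the deposited table and 24 with array weights. The median was 0.56 with cyclic loess, 0.69 with median scaling, 0.47 with the deposited table and 0.52 to 0.65 with 1 array left out. The cause of these shifts was not tested. With the replicate number as a block, counts were 26 lower with CpG (Mcm6, adjusted p = 0.0446, and Rfc4, 0.00408, added), 20 higher and 1 lower in the combined group against CpG, 4 lower with gefitinib (Pcna, adjusted p = 0.0297, and Rfc4, 0.0304, added), 0 between the combined and gefitinib groups, 1 lower in the combined group against untreated, and 19 for the interaction (Rfc4, 0.0115, and Rfc5, 0.0417, added). With only the arrays compared and the replicate block, added after the data were seen, the combined group against untreated had 0.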
